A study of Homo sapiens with 4 samples.

Results

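The polypyrimidine tract binding (PTB) proteins PTBP1, PTBP2 and PTBP3 and one of their best known targets, the pyruvate kinase gene PKM, were followed through the skipped exons of their own transcripts. An event was taken where its skipped exon shares at least 1 boundary with a GENCODE release 29 (hg38) exon of one of these 4 genes, which gave 14 of 44910 events and 12 of 38121 different skipped exons. In all 14 events both boundaries of the exon were annotated. The genes were chosen with the difference between the groups already known, so every difference between the groups is given as a description, with no test.

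The RNA came from MDA-LM2, an established human breast cancer line selected from MDA-MB-231 for growth in the lung. In the siSNRPB2 group, 2 libraries, SNRPB2 was silenced by transfected small interfering RNA. Its product U2B'' belongs to the U2 snRNP, the particle of the spliceosome that binds the branch point ahead of an exon. The siCtrl group, also 2 libraries, was transfected with a control small interfering RNA. All RNA was taken 48 h after transfection, and the labels give 2 independent small interfering RNAs against SNRPB2 and a knockdown of more than 95% by quantitative PCR, without saying which library received which. The deposited files hold 1 inclusion level, ψ, per event and group. ψ is the fraction of the event's transcripts that keep the exon, and the interval given with it is the authors' own, its level not being given in the sources used here. No difference below can be set against a spread between replicates.

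PTB proteins bind pyrimidine-rich RNA, mostly in introns beside exons, and commonly repress the exon. PTBP1 is present in most tissues, PTBP2 is the form typical of neurons and PTBP3 was first described in blood cells. In non-neuronal cells PTBP1 is known to cause skipping of exon 10 of PTBP2, which shifts the reading frame and exposes the transcript to nonsense-mediated decay. PTBP1 limits its own level in the same way through its exon 11. In PKM, PTBP1 acts with hnRNPA1 and hnRNPA2 to repress exon 9, so that exon 10 is used and the M2 form of the enzyme is made.

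The exon of PTBP2 that rose has counterparts of the same length in PTBP1 and PTBP3, and their sequences are shown because the exon behaved differently in the 2 genes where it was measured. They were read from the GENCODE release 29 transcripts, 5′ to 3′ on the transcript strand, each 34 nt long. Capitals mark bases that differ from PTBP1 when the exons are laid side by side without gaps.
PTBP1 34 nt exon: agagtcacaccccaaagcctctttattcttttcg
PTBP2 34 nt exon: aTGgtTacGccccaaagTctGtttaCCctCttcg
PTBP3 exon 11: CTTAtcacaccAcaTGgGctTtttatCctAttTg
They lie at chr19:807869-807902 on the plus strand, chr1:96806419-96806452 on the plus strand and chr9:112231380-112231413 on the minus strand of hg38. PTBP2 shared 25 and PTBP3 22 of the 34 bases with PTBP1. Pyrimidines made up 64.7% of the exon in PTBP1 and PTBP2 and 67.6% in PTBP3, against a median of 47.1% over 1155 annotated exons of 34 nt. The motif TCTT, searched on the transcript strand only, occurred 2 times in the PTBP1 exon, 1 time in the PTBP2 exon and not in the PTBP3 exon, and 12.4% of the exons of that length hold it. The motif CTCTCT, held by 0.866% of them, occurred in none of the 3.

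Without its 34 nt exon, the reading frame of either transcript runs into the same kind of stop. The next sequences show the last 24 nt of the upstream exon joined to the downstream exon, up to the first stop codon in frame, in capitals.
PTBP2 skipping junction: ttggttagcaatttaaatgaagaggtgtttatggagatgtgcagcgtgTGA
PTBP1 skipping junction: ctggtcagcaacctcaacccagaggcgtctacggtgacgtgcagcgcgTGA
In both, the stop codon begins 24 nt after the junction and ends 361 nt upstream of the last exon junction. The open frame falls from 537 to 361 codons in the PTBP2 transcript used and from 588 to 412 codons in the PTBP1 transcript used. Of the 11 annotated PTBP2 transcripts, 6 join the exon to both neighbours and 3 join the neighbours directly.

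In the PTBP2 transcript used, the 34 nt exon is number 10 of 14 and lies in coding sequence. Its ψ was 0.97 in siSNRPB2 (interval 0.93 to 0.99) and 0.15 in siCtrl (0.08 to 0.24). By these estimates nearly all PTBP2 transcripts kept the exon after SNRPB2 silencing, and most skipped it in the control. Reads that fit only the isoform with the exon numbered 190 in siSNRPB2 and 11 in siCtrl. Reads that fit only the isoform without it numbered 4 and 58. Both kinds together are called informative, and the inclusion-only share of them was 97.9% in siSNRPB2 (exact 95% binomial interval 94.8 to 99.4) and 15.9% in siCtrl (8.24 to 26.7). The intervals of the groups lie far apart by either measure, but they cover counting error only, and reads without molecular identifiers are not independent molecules.

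The flanking exons of this event, at chr1:96804800-96804939 and chr1:96806866-96806958, gave 100 reads that fit both isoforms in siSNRPB2 and 0 in siCtrl, although 69 informative reads of the control cross or touch the same exons. Coverage of the event thus differed between the files in more than the choice of junction. The ψ difference of 0.82 (siSNRPB2 minus siCtrl) came with a Bayes factor of 1e+12. That is the maximum of the authors' deposited table and is shared by 1929 events, so it gives no rank. It was the 5th largest rise among the 18682 tested exons, those for which both files hold 20 informative reads or more. Of 955 tested exons that also started between 0.1 and 0.2 in siCtrl, 23 (2.41%) rose by 0.5 or more, beside 0.808% of all tested exons. Of 28 tested exons of 34 nt, 1 (3.57%) was called higher, the PTBP2 exon, beside 7.13% of all tested exons. The gene was chosen with this rise known. The start range and the length were set around this exon's own values, and each set includes it. Nothing is therefore read from its rank or from these shares.

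**Figure D1:**
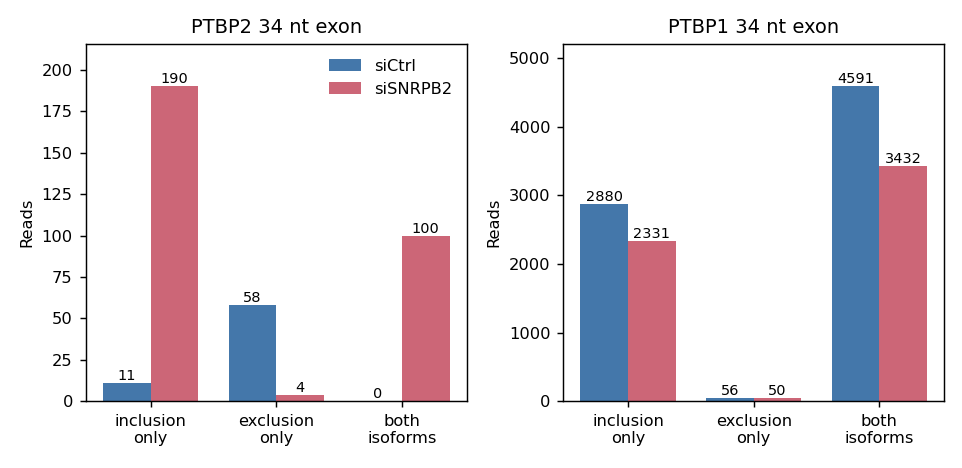
Reads per class of compatibility (vertical axes, linear, different ranges) for the 34 nt exons of PTBP2 (left) and PTBP1 (right), siCtrl in blue and siSNRPB2 in red, 1 value per group. In PTBP2 the inclusion-only reads go from 11 to 190 and the exclusion-only reads from 58 to 4, while in PTBP1 exclusion-only reads stay at 56 and 50.

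The other tested PTBP2 exon was included in both groups. It is 76 nt long, lies at chr1:96751425-96751500 and is coding exon 3 in the transcript used. Its ψ was 0.92 in siSNRPB2 (0.76 to 1) and 0.9 in siCtrl (0.72 to 0.99), and the intervals overlap almost entirely. No exclusion-only read was seen among 93 informative reads in siSNRPB2 or among 65 in siCtrl. This allows an exclusion-only share of informative reads of up to 3.23% and 4.62%. Each limit is 3 reads divided by the informative reads, and not a bound of the exact interval. Of the 2 tested PTBP2 exons, only the 34 nt exon was higher in siSNRPB2 beyond its interval. A further PTBP2 stretch, outside the set and under the read minimum, had a ψ of 0.33 in siSNRPB2 and 0.02 in siCtrl. It is described at the end.

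The counterpart of the switching exon in PTBP1 was near full inclusion in both groups. Its ψ was 0.97 (0.96 to 0.98) in siSNRPB2 and in siCtrl, and the deposited difference was 0. In siSNRPB2 2331 reads were inclusion-only and 50 exclusion-only, and in siCtrl 2880 and 56. The inclusion-only share was 97.9% (97.2 to 98.4) in siSNRPB2 and 98.1% (97.5 to 98.6) in siCtrl. A second event of the same exon, with other flanking exons, had a ψ of 1 in both groups. The self-limiting PTBP1 exon and the PTBP2 exon thus had near equal levels in siSNRPB2 and very different levels in siCtrl.

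PTBP1 has a further regulated exon, commonly called exon 9, in the linker between its inner RNA-binding domains. The PTBP1 isoform without it is known as a weaker repressor of neuronal exons. The exon has 2 alternative 3′ splice sites and so occurs in a long form of 78 nt, chr19:805492-805569, and a short form of 57 nt, chr19:805513-805569. Both lengths are multiples of 3 and leave the frame open when skipped. The sequence of the long form shows in capitals the first 21 nt, which only that form contains.
PTBP1 78 nt exon: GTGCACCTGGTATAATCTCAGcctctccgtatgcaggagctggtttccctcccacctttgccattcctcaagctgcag
Neither TCTT nor CTCTCT occurs in it, and 28.3% and 2.1% of 2860 annotated exons of 78 nt hold them.

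By ψ, both forms of the PTBP1 exon were lower in siSNRPB2. The 57 nt form had a ψ of 0.23 (0.2 to 0.26) in siSNRPB2 and 0.34 (0.31 to 0.38) in siCtrl, intervals that do not overlap, and the authors' deposited table gives it a Bayes factor of 1.92e+09. The 78 nt form had a ψ of 0.29 (0.26 to 0.32) and 0.36 (0.33 to 0.39), intervals that do not overlap, and 42.72 as its Bayes factor in that table. An exon was called where the Bayes factor was at least 10 and the ψ difference at least 0.1. The short form, at -0.11, was just inside that rule and the long form, at -0.07, just outside it. The forms share their 5′ splice site and their exclusion-only reads, so they are not separate evidence.

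The inclusion-only share of the same exon did not move with ψ, though the counts behind it did fall. For the 57 nt form, 250 were inclusion-only and 11 exclusion-only in siSNRPB2, and 529 and 21 in siCtrl. The inclusion-only share was 95.8% (92.6 to 97.9) in siSNRPB2 and 96.2% (94.2 to 97.6) in siCtrl, a difference of -0.00396 as a fraction. For the 78 nt form it was 97.5% and 97.3%. The low ψ arose beside 5222 and 7250 reads that fit both isoforms, which MISO weighs against the reads over the exon. Over all 18682 tested exons, 11.04% had an inclusion-only share in siCtrl that exceeded ψ by 0.5 or more, and 42.3% of the 2754 called exons differed by less than 0.01 in that share. The call for the PTBP1 exon therefore holds for ψ and not for the inclusion-only share.

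The 78 nt form had 225 more inclusion-only reads than the 57 nt form in siCtrl and 182 more in siSNRPB2. These are net numbers, since either form also has reads of its own. They amount to 29.8% of the inclusion-only reads of the long form in siCtrl and 42.1% in siSNRPB2.

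**Figure D2:**
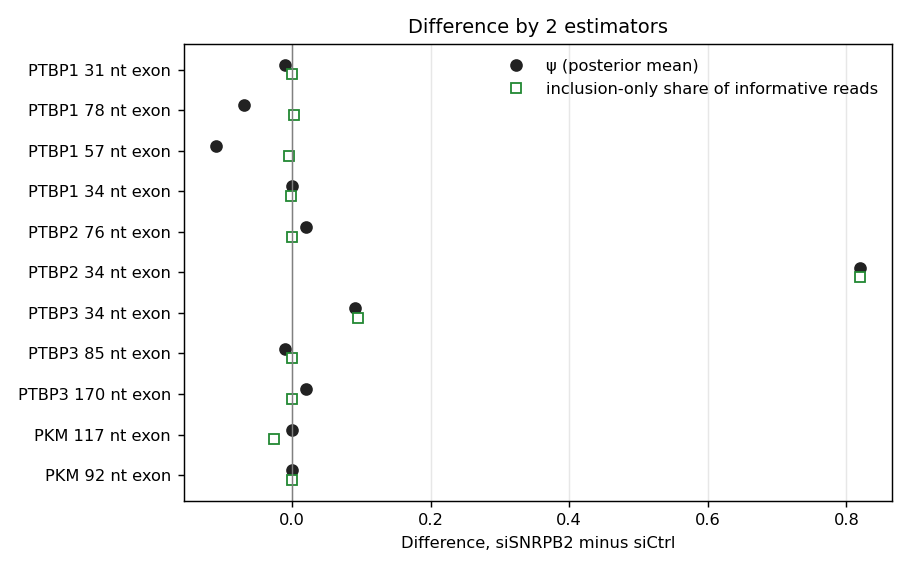
Difference between the groups (horizontal axis, siSNRPB2 minus siCtrl, fraction) for the 11 tested exons, from ψ (black circles) and from the inclusion-only share of informative reads (green squares), 1 value each. The PTBP2 34 nt exon stands at 0.82 by both, while the PTBP1 57 nt exon is at -0.11 by ψ and near 0 by the share.

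The remaining PTBP1 exon, 31 nt at chr19:799413-799443, is the coding exon next to the first and was included in both groups. Its ψ was 0.96 (0.86 to 1) in siSNRPB2 and 0.97 (0.9 to 1) in siCtrl. No exclusion-only read was seen among 59 and 83 informative reads, which by the same kind of limit allow a share of them of up to 5.08% and 3.61%.

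PTBP3 had 3 tested exons, all coding in the transcripts used, and none was called. The 34 nt exon at chr9:112330441-112330474, which is the second exon and not the counterpart printed above, was mostly skipped. Its ψ was 0.15 (0.08 to 0.24) in siSNRPB2 and 0.06 (0.03 to 0.11) in siCtrl, and the intervals overlap. In siSNRPB2 13 reads were inclusion-only and 66 exclusion-only, and in siCtrl 8 and 108. The difference of 0.09 lay just under the minimum and the authors' deposited table lists a Bayes factor of 0.61. The 85 nt exon, chr9:112297832-112297916, had a ψ of 0.97 (0.9 to 1) in siSNRPB2 and 0.98 (0.95 to 1) in siCtrl. For the 170 nt exon, chr9:112275844-112276013, ψ was 0.99 (0.94 to 1) and 0.97 (0.9 to 1). Neither had an exclusion-only read, with 77 and 134 informative reads for the first and 214 and 196 for the second. No event in the files used here has the PTBP3 exon 11 as its skipped exon.

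The PKM exons for which the PTB proteins are best known are absent from the events used here. GENCODE places exon 9, of the M1 form, at chr15:72203022-72203188 and exon 10, of the M2 form, at chr15:72202454-72202620, each 167 nt long on the minus strand. No event has either as its skipped exon or as a flanking exon, so the choice between M1 and M2 was not analysed here. What was measured of PKM lies at its 5′ end.

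Of the 3 skipped PKM exons, the coding 92 nt exon at chr15:72217409-72217500 had the most reads of any exon of the 4 genes. It was included with a ψ of 1 in both groups. Inclusion-only reads numbered 21816 in siSNRPB2 and 26328 in siCtrl, and exclusion-only reads 19 and 1. The inclusion-only share was 99.91% (99.86 to 99.95) in siSNRPB2 and 99.996% (99.98 to 99.9999) in siCtrl. These counting intervals do not overlap, with the lower share in siSNRPB2. The difference was under 0.1 percentage point, and the authors' deposited table lists a Bayes factor of 0 for the event. Skipping this exon would shift the frame, with a stop codon 53 nt after the junction.

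The 117 nt exon at chr15:72221168-72221284, in the 5′ untranslated region of the transcript used, had a low ψ in both of its events. In the deeper event ψ was 0.02 in both groups, from 107 reads for inclusion and 664 for exclusion in siSNRPB2 and from 145 and 732 in siCtrl. The inclusion-only share was 13.9% (11.5 to 16.5) and 16.5% (14.1 to 19.2), and these intervals overlap. Its other event, which differs in the first exon, had a ψ of 0.05 in both groups. There 107 reads were inclusion-only and 10 exclusion-only in siSNRPB2, and 144 and 31 in siCtrl. The inclusion-only share was 91.5% (84.8 to 95.8) and 82.3% (75.8 to 87.6), a far higher level than in the deeper event, with the higher value in siSNRPB2 and overlapping intervals. A 68 nt exon at chr15:72231324-72231391 had 0 informative reads in siSNRPB2 and 8 in siCtrl and was not tested. GENCODE lists 5 pseudogenes of PKM and 1 of PTBP1, and reads shared with them could have been placed on either copy.

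Over the 4 genes, 11 of the 12 skipped exons were tested, with 1 called higher (PTBP2) and 1 called lower (PTBP1). These are 18.2% of the 11, beside 14.7% of all tested exons, of which 7.13% were called higher and 7.61% lower. As the genes were chosen from this same contrast, nothing is read from that share. The median ψ difference was 0 over the 11 exons and 0 over all tested exons.

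**Figure D3:**
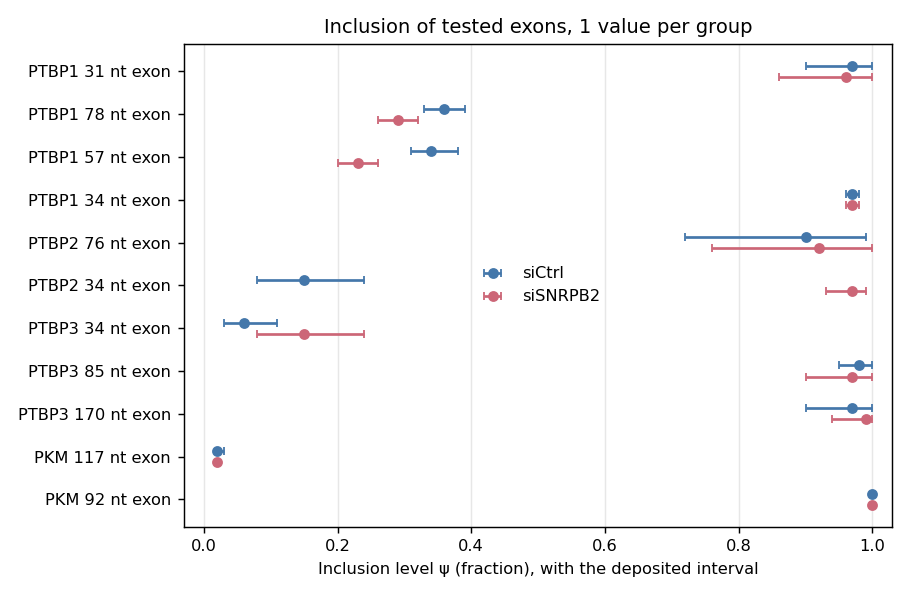
Inclusion level ψ (horizontal axis, fraction) of the 11 tested exons, siCtrl in blue and siSNRPB2 in red, each a single deposited value with the authors' interval as the bar. The PTBP2 34 nt exon goes from 0.15 to 0.97, the PTBP1 exons of 78 and 57 nt are lower in siSNRPB2 without overlap of the bars, and the bars of the other exons overlap.

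**Figure D4:**
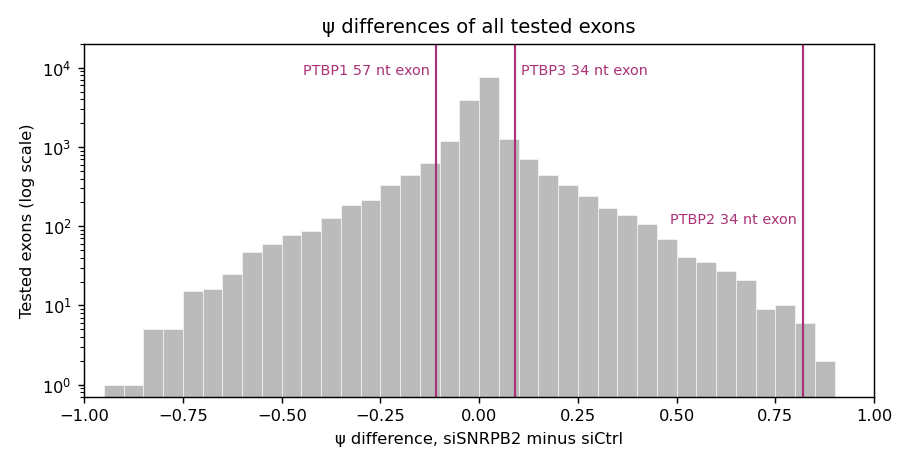
Number of tested exons (vertical axis, log scale) by ψ difference, siSNRPB2 minus siCtrl, in steps of 0.05 over 18682 exons. Lines mark the PTBP2 34 nt exon at 0.82, far in the right tail, and the PTBP1 57 nt and PTBP3 34 nt exons at -0.11 and 0.09, on either side of the centre.

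Reads compatible with either isoform served as a proxy of how much transcript was sampled, scaled to each file's total over 1 event per gene and expressed as a log2 ratio, siSNRPB2 over siCtrl, with a pseudocount of 1. PTBP2 was higher in siSNRPB2. On its deepest event, that of the 76 nt exon, it had 268 reads in siSNRPB2 and 191 in siCtrl, a log2 ratio of 0.66 (95% interval 0.39 to 0.94, counting error only). On the event of the 34 nt exon it had 294 and 69, a log2 ratio of 2.25 (1.88 to 2.67). The 2 events of the same gene thus differed by more than their counting intervals. The SD of the log2 ratio over the 10810 genes with at least 20 reads on average was 0.92.

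PTBP1 was slightly lower, at 5665 reads in siSNRPB2 and 8025 in siCtrl on its deepest event, a log2 ratio of -0.33 (-0.38 to -0.28). All 5 PTBP1 events had a ratio below 0, from -0.39 to -0.10. PTBP3 had 311 and 337 reads, a log2 ratio of 0.06 (-0.17 to 0.29), but its other 2 events were at -0.44 and -0.49, so no direction can be given. PKM had 50297 and 59465 reads, a log2 ratio of -0.07 (-0.08 to -0.05). As RPM, reads scaled to that total, PKM stood at 2958 in siSNRPB2 and 3095 in siCtrl, PTBP1 at 333 and 418, PTBP3 at 18.3 and 17.5 and PTBP2 at 15.8 and 9.94. These values depend on the length of the exons in each event and are not compared between genes.

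**Figure D5:**
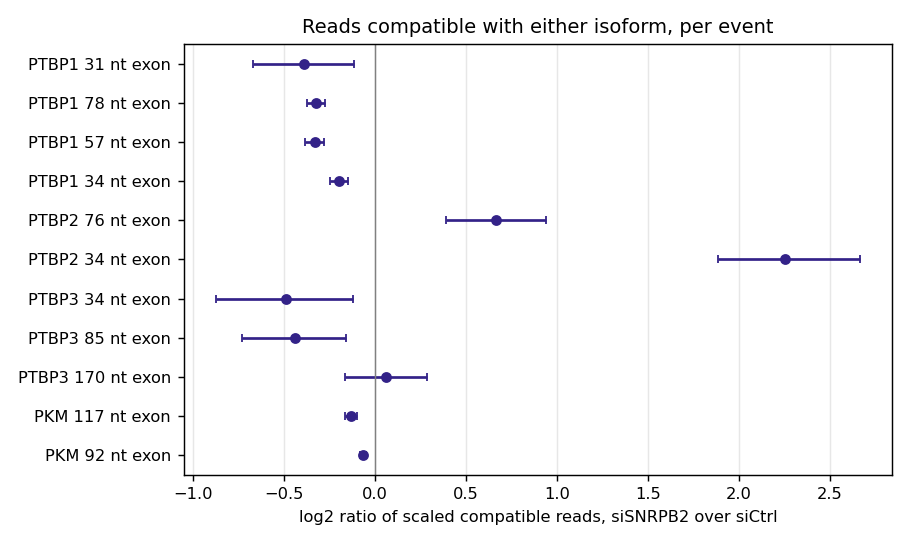
Log2 ratio of scaled reads compatible with either isoform (horizontal axis, siSNRPB2 over siCtrl) for the deepest event of each of the 11 tested exons, with 95% counting intervals as bars. The PTBP2 events lie at 0.66 and 2.25, and the PTBP1 events all lie below 0.

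The exons of other genes tied to PTB function were counted from 3 lists. Genes with exons described as PTB-regulated had 79 tested exons in 22 of 30 genes, 5 called higher and 6 lower (13.9%, beside 14.7% of all tested exons), with a median ψ difference of 0. Every tested exon of a gene was counted, not only the one under PTB control. In FLNA, which encodes the actin crosslinker filamin A, a 24 nt exon had a ψ of 0.47 in siSNRPB2 and 0.65 in siCtrl, while the inclusion-only share went the other way, at 95.1% (538 inclusion-only and 28 exclusion-only reads) and 93.4% (1058 and 75). EIF4G2, a translation factor, had a ψ of 0.78 and 0.67, with a share of 100% and 99.8%. EXOC7, an exocyst subunit, was higher (0.91 and 0.63), and FGFR1, a growth factor receptor (0.24 and 0.45), NUMB, a Notch inhibitor (0.31 and 0.47), and TEAD1, a transcription factor of the Hippo pathway (0.37 and 0.51), were lower by ψ, all 4 without an exclusion-only read in either file and so with a share of 100% in both.

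Partners and co-regulators of PTB proteins or of PKM splicing had 56 tested exons in 14 of 18 genes. Of these exons 4 were called higher and 2 lower (10.7%, beside 14.7% of all tested exons). MATR3, a nuclear matrix protein that binds PTBP1, had an 82 nt exon with a ψ of 0.91 in siSNRPB2 and 0.35 in siCtrl, while its inclusion-only share was 99.5% and 100%. TRA2B, an SR-like splicing activator, had a 276 nt exon with a ψ of 0.63 and 0.42 and a share of 97.4% and 94.6%. HNRNPC, which competes for uridine-rich RNA, had a 26 nt exon with a ψ of 0.24 and 0.4 and a share of 81.2% and 93.5%, lower in siSNRPB2 by both measures. MBNL1, a splicing regulator of differentiation, had a 36 nt exon with a ψ of 0.88 and 0.63 and a share of 99.3% and 100%.

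Glycolytic enzymes other than PKM had 45 tested exons in 14 of 22 genes, 4 called higher and 3 lower (15.6%, beside 14.7% of all tested exons). Exclusion-only reads were present on both sides for PFKP, a phosphofructokinase (ψ 0.05 in siSNRPB2 and 0.28 in siCtrl), PFKM, its muscle form (0.48 and 0.24), PFKFB4, which sets the level of a phosphofructokinase activator (0.44 and 0.85), and ALDOA, an aldolase (0.75 and 0.85). Their inclusion-only shares moved in the direction of ψ, at 22.4% and 62.4% for PFKP, 67.2% and 56.4% for PFKM, 74.6% and 96.6% for PFKFB4 and 95.3% and 97.0% for ALDOA. LDHB, a lactate dehydrogenase (0.71 and 0.43), and ENO2, the neuronal enolase (0.68 and 0.34), had none in either file. The medians of the last 2 lists were also 0, and the shares called stood on both sides of that of all tested exons.

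Markers of cell types were followed by the reads of 1 event per gene. Each sum is ruled by the genes whose events hold the most reads, and several markers have no event. The sums therefore do not establish the cells' identity. Of 8 markers of a mesenchymal-like line, 5 had an event, together 4357 RPM in siSNRPB2 and 4880 in siCtrl, led by CD44. Of 7 epithelial markers 4 had an event, together 676 and 734 RPM, nearly all from KRT8. GATA3 was at 173 and 353 reads, CDH1 at 8 and 0 and ESR1 at 10 and 1. Since PTBP2 with its exon 10 is typical of neurons, 11 neuronal markers were read too. Of these 6 had an event, together 20.7 RPM in siSNRPB2 and 10.4 in siCtrl, from 352 and 200 reads. MAP2, with 170 and 47 reads, made up most of that difference. SYT1, with 135 and 130 reads, and DCX, with 12 and 11, were near level. RBFOX3 had 1 and 5, STMN2 13 and 1 and ELAVL4 21 and 6. The part of these markers in the PTBP2 result was not tested. Of 4 blood and endothelial markers 3 had an event, and they moved in opposite directions, PTPRC at 8 reads in siSNRPB2 and 51 in siCtrl, CD3E at 30 and 1 and CDH5 at 0 and 1. SNRPB2 itself had no event, and its level was not analysed here.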

How the data were processed

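RNA of 4 libraries, 2 per group, was sequenced with a stranded total RNA kit for low input, per the labels' protocols. The submitters' processing notes name STAR 2.7 and the hg38 build. MISO, per the file headers, estimated ψ, which the authors deposited as a fraction beside an interval and the reads of each class. Their deposited comparison holds a Bayes factor, the ratio of evidence for and against a difference, and the ψ difference, a score between -1 and 1. The sources used here do not give the MISO version or event annotation, nor say whether a group's libraries were pooled. The siCtrl file held 42159 events with 41156497 reads compatible with an isoform and the siSNRPB2 file 42670 with 36309829, and a read can count in several events. Tested exons had a median of 137 informative reads in siSNRPB2 and 158 in siCtrl.

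Events were assigned to GENCODE release 29 genes by exon boundary, keeping for each skipped exon the event with the most informative reads and at least 20 in each file. The genes and lists were chosen with earlier results of these data known. All tested exons of the 4 genes are named, and from each list up to 6 called exons for which both files hold 50 informative reads or more, 1 per gene. Frames were translated from the annotated start codon of the protein-coding transcript with the longest open frame. The code for parsing and calling was checked on simulated input with known answers, which gives no error rate for real data. Intronic sequence was not used here. Python 3.11.15 was used with scipy 1.17.1, pandas 2.3.3, numpy 2.4.6 and matplotlib 3.10.9.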

Additional observations from a re-analysis of the deposited data

Results flagged for a closer look

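The results above leave aside reads compatible with neither isoform, which include reads within introns. On the deepest event of PTBP1, that of the 78 nt exon, they made up 28.5% of reads in siSNRPB2 (exact 95% interval 27.5 to 29.5, counting error only), above the 26.3% (25.5 to 27.1) in siCtrl. Over all events of the files they made up 61.2% and 59.1%. On the deepest events of the other genes the share was 86.3% and 88.9% in PTBP2, 74.3% and 69.3% in PTBP3, and 15.2% and 16.0% in PKM, with overlapping intervals in PTBP2 and PTBP3 and a lower share in siSNRPB2 in PKM.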

How the results depend on the processing

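The PTBP2 34 nt exon had a difference of 0.82 by the inclusion-only share and 0.87 with inclusion-only reads divided by 2. It has a single event, so the median over events could not differ. With a minimum ψ difference of 0.2 only this exon of the 4 genes was called (1 in place of 2). With a minimum of 0.05 the count was 3, and under the other settings (Bayes factor, read minimum, both boundaries, all events) it was 2. For the PTBP1 exons the inclusion-only share gave -0.00396 (57 nt) and 0.00227 (78 nt), and dividing inclusion-only reads by 2 gave -0.00733 and 0.00431. These estimators leave out the reads that fit both isoforms, by construction. Among genes with PTB-regulated exons the 11 called exons fell to 4 with a minimum difference of 0.2 and to 6 with a Bayes factor of at least 100. The counts of the other 2 lists stayed within 1.5 times. The share called of all tested exons under these settings is not given here. Nothing is therefore read from the changed counts of the 4 genes or of the lists. With reads summed over all events, the log2 ratio was -0.26 for PTBP1, 1.29 for PTBP2, -0.20 for PTBP3, which turned its direction, and -0.095 for PKM. The cause was not tested. No paired analysis was possible because the files hold 1 value per event and group, and for the same reason leaving out a library was not run. The fewest informative reads of a tested exon were 59 in siSNRPB2 (PTBP1 31 nt exon) and 65 in siCtrl (PTBP2 76 nt exon).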

Other observations

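A 156 nt stretch of PTBP2 at chr1:96749531-96749686, between the second annotated exon and the 76 nt exon, is listed as a skipped exon that shares no boundary with a GENCODE exon. It was therefore outside the set described above, and with 10 informative reads in siCtrl it was also under the read minimum. Its ψ was 0.33 (0.2 to 0.53) in siSNRPB2 and 0.02 (0 to 0.12) in siCtrl, with 30 inclusion-only and 3 exclusion-only reads against 0 and 10, and the authors' deposited table gives a Bayes factor of 64.2.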
